A study of Mus musculus with 6 samples.

Results

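The genes of the centriole, the deuterosome and the centrosome were examined in whole mouse lungs at E18.5, in *Tnrc6a* null embryos and in WT embryos. The set holds 45 genes, chosen by name for the part their proteins play in building, capping or anchoring centrioles, and all 45 were measured among the 19938 genes with a value. None of the 45 passed an adjusted p of 0.05 (limma with Benjamini-Hochberg adjustment over all genes; smallest adjusted p 0.89). Their differences between the genotypes (*Tnrc6a* null minus WT, in units of the deposited log values) ran from -0.17 for *Cep164* to 0.46 for *Stil*, and their 95% intervals reached 0.18 to 0.54 to either side.

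A centriole is a short barrel of microtubules. A cycling cell makes 1 new centriole beside each old one, under the kinase PLK4 and the cartwheel proteins STIL and SAS-6. A multiciliated cell (MCC) of the airway instead makes many centrioles at once, partly on deuterosomes, which are bodies built of DEUP1, and docks them at its apical surface, where each becomes the base of a motile cilium. TNRC6A (GW182) binds Argonaute proteins and takes part in silencing of mRNAs by miRNAs. The study located TNRC6A granules in MCCs near forming centrioles, which raises the question of whether transcripts of centriole genes differ in lungs that lack it.

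The *Tnrc6a* null embryos (n = 3) were homozygous for a gene trap that inserts β-galactosidase into *Tnrc6a*, and the WT embryos (n = 3) were littermates. Both genotypes were on a C57Bl/6 background, and each array carried total RNA of the lung of 1 embryo. The trap acts in every cell of the embryo, and MCCs are a minor part of a whole lung, so fewer cells of a type and less RNA per cell cannot be told apart in these values. The labels call the values log2, but the base is unsettled, since natural logarithms are also possible and no scanner values were at hand to test it, and differences are therefore given on the deposited scale and not as folds. *Tnrc6a* itself read 5.45, 5.04 and 5.40 in *Tnrc6a* null lungs, against 7.38, 7.13 and 7.18 in WT lungs (difference -1.93, SE 0.13, limma adjusted p 0.0031), and it was the 1 gene of 19938 (0.00502%) past the adjusted threshold. That count was 56 with a block for null replicate 3 and WT replicate 1, 23 without these lungs, and 0 without WT replicate 3. Array medians ran from 4.98 to 5.03. Null replicate 3 and WT replicate 1 correlated at 0.988 over all probe sets, the highest of any pair (the lowest was 0.963), and results are given without them where they change. A list of 14 genes of lung epithelium, vessels and stroma had a median mean signal of 9.06, against 5.43 over all genes. Their means ran from 5.46 for *Foxa2* to 11.8 for *Sftpc*, the surfactant protein C gene of alveolar type 2 cells. *Foxj1*, the regulator of motile ciliogenesis, read 6.48, 6.44 and 6.38 in *Tnrc6a* null lungs and 6.39, 6.51 and 6.59 in WT lungs.

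Within the set, *Ccp110* has a known link to miRNAs: the miR-34 and miR-449 families, abundant in MCCs, repress it. Mature members of these families are shown because they share the seed through which such targets are recognised. The seed, bases 2 to 8, is in capitals, the sequences run 5′ to 3′, and their positions are those of RefSeq on GRCm38.p6. The arrays analysed here gave no value for mature miRNAs.
mmu-miR-34a-5p, chr4:150068473-150068494, plus strand: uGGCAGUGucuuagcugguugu
mmu-miR-34b-5p, chr9:51103610-51103632, minus strand: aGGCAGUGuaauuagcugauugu
mmu-miR-449c-5p, chr13:113036008-113036028, plus strand: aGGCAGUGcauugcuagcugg
mmu-miR-449a-5p, chr13:113037549-113037570, plus strand: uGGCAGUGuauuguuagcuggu

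The 4 miRNAs have the same seed. Promoters are shown for *Deup1*, *Stil* and *Plk4*, whose spread between lungs of 1 genotype was among the largest of the set, and for *Kif24*, which differed between the genotypes at an unadjusted p. Each is the RefSeq window of 250 bases before to 50 bases after a transcription start on GRCm38.p6, written 5′ to 3′ along the gene, and for *Deup1* the first of its 2 windows; the counts over genes use all windows of a gene. Capitals mark matches, on either strand, to the CCAAT box (CCAAT), which NF-Y binds, the CHR element (TTTGAA or TTCGAA) of cell cycle genes, the E2F site (TTTCCCGC or TTTGGCGC), or part of the X-box (GTTGCCAT or GTTACCAT), which the RFX factors of ciliated cells bind.
Deup1, chr9:15627797-15628096, minus strand: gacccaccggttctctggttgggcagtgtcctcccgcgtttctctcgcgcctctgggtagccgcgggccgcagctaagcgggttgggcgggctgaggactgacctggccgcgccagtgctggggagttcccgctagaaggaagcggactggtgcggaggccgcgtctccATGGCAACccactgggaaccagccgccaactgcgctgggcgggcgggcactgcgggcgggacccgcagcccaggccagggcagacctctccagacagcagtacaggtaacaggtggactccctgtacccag
Stil, chr4:114999868-115000167, plus strand: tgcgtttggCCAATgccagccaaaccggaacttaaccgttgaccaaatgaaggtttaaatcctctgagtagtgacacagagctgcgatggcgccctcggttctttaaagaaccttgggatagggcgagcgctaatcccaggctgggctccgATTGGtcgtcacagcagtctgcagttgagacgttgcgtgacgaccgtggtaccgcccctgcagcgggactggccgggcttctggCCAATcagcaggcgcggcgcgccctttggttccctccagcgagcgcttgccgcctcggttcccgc
Plk4, chr3:40799701-40800000, plus strand: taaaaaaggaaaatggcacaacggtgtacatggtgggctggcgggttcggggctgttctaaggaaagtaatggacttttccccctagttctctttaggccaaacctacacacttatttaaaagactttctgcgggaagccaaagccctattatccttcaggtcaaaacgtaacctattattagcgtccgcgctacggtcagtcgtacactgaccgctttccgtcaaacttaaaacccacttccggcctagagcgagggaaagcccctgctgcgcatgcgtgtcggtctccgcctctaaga
Kif24, chr4:41464799-41465098, minus strand: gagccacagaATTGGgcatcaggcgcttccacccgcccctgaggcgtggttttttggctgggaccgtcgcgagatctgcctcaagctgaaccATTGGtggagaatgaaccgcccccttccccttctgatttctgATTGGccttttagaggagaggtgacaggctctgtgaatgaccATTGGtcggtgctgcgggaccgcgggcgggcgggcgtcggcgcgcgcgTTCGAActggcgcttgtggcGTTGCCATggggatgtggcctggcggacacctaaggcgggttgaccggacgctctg

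The *Deup1* window shown held a partial X-box and none of the other motifs (its second window held 1 CCAAT box), *Stil* held 3 CCAAT boxes, *Plk4* held none of these letters, and *Kif24* held 4 CCAAT boxes, a CHR element and a partial X-box. Of the 45 genes 37 had a promoter entry, and the partial X-box was found in 2 of them, *Deup1* and *Kif24* (5.41%), against 2.31% of 27025 genes. The CCAAT box was found in 22 of the 37 (59.5%), against 41.1% of all genes, the CHR element in 11 (29.7%), against 21.7%, and the E2F site in 2 (5.41%), against 1.8%. These shares are descriptions of letters in a window and were not tested.

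The genotypes were compared first over the whole set. Of the 45 genes 28 had a higher mean in *Tnrc6a* null lungs, 16 a lower mean and 1, *Cep57*, the same mean. Differences too small to show in 2 decimals, such as 0.003 for *Cep192* and -0.003 for *Cep63*, were counted by their sign. The median difference was 0.02, against 0.00 over all genes, and the counts moved with the scaling of all genes. With the arrays centred on the median of all probe sets, the median was -0.02 for the set and -0.04 for all genes, with 19 genes of the set higher and 25 lower. With quantile normalization of all probe sets it was 0.00 for the set and -0.02 for all genes, with 22 higher and 23 lower. At an unadjusted p under 0.05, 2 genes were higher (4.44%) and 0 were lower, against 2.46% of all genes higher and 2.96% lower. With the arrays centred on the median of all probe sets, 0 were higher and 1, *Ttbk2*, was lower, against 1.58% of all genes higher and 5.34% lower. Every *Tnrc6a* null lung lay above every WT lung for 3 genes (6.67%), against 4.67% of all genes, and below every WT lung for 2 (4.44%), against 5.51%. These shares are near those of all genes.

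**Figure D1:**
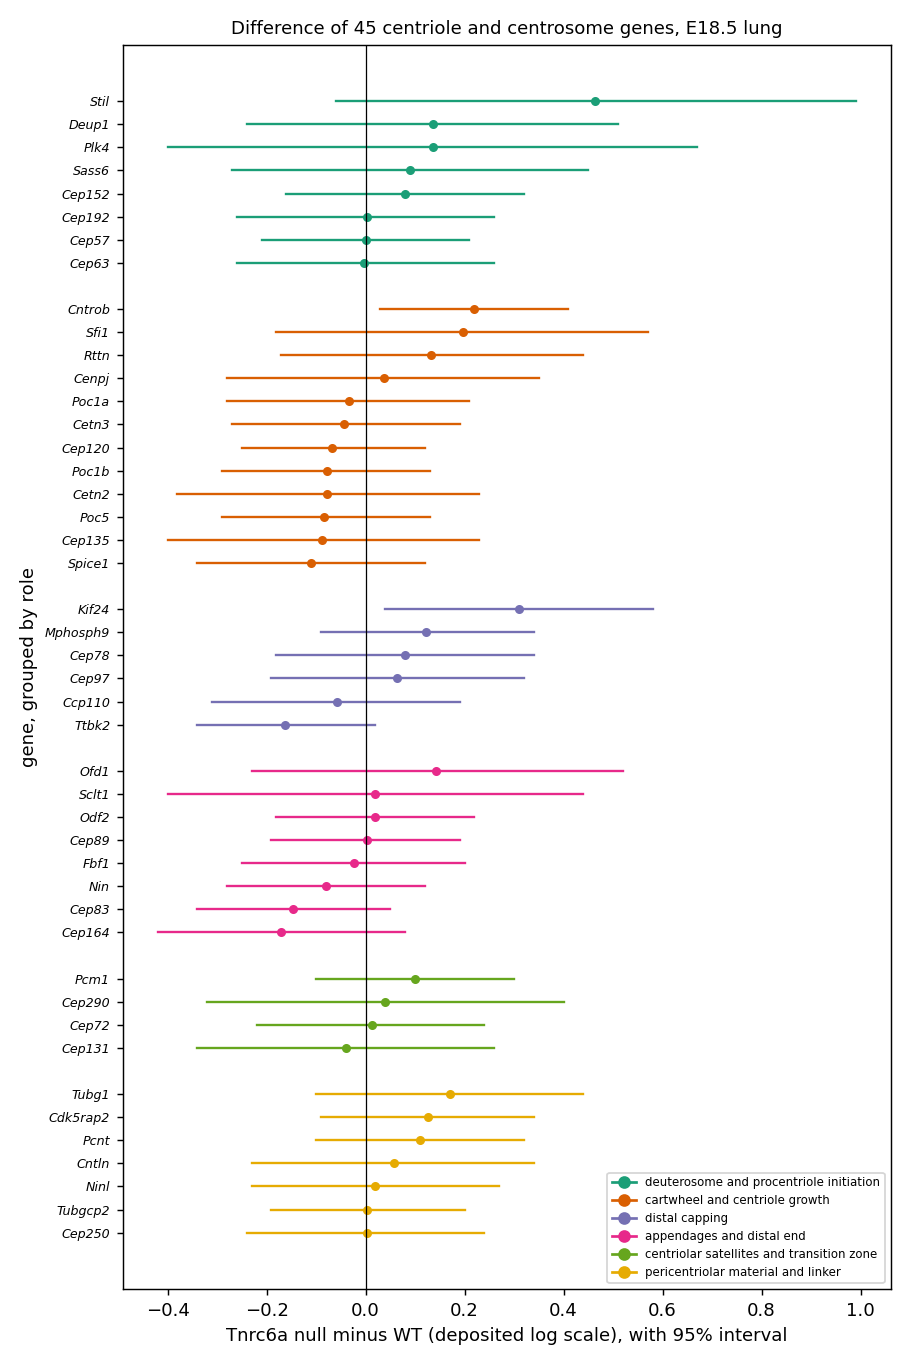
Difference of each of the 45 genes between *Tnrc6a* null and WT lungs on the deposited log scale (points, n = 3 lungs each), with 95% intervals from limma (lines), grouped and coloured by role. The intervals of *Cntrob* and *Kif24* lie above 0 before adjustment over all genes, and the other 43 include 0.

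The first role is the start of a new centriole. *Stil*, which joins PLK4 to the cartwheel, read 6.07, 5.69 and 6.32 in *Tnrc6a* null lungs and 6.06, 5.43 and 5.20 in WT lungs. Its difference of 0.46 (SE 0.23, 95% interval -0.06 to 0.99, unadjusted p 0.0757, limma) was the largest in the set, but WT replicate 1 lay at the level of null replicate 1, so the genotypes overlapped. *Plk4*, the kinase that sets how many centrioles form, read 6.16, 5.99 and 6.57 in *Tnrc6a* null lungs and 6.66, 5.85 and 5.80 in WT lungs, with its highest value in a WT lung. *Sass6*, which forms the spokes of the cartwheel, read 6.22, 5.78 and 6.35 in *Tnrc6a* null lungs and 6.21, 5.83 and 6.04 in WT lungs. In all 3 genes null replicate 3 and WT replicate 1 were high for their genotype and null replicate 2 low.

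*Deup1*, the paralogue of *Cep63* that builds deuterosomes, read 5.85, 5.55 and 5.99 in *Tnrc6a* null lungs and 5.97, 5.58 and 5.43 in WT lungs. The difference was 0.14 (SE 0.16, 95% interval -0.24 to 0.51), and each genotype held a lung near 6.0 and a lung near 5.5. *Cep63*, which places its partner *Cep152* at the parent centriole, had a mean of 5.19 in each genotype. *Cep152*, the scaffold that brings in PLK4, read 4.71, 4.62 and 4.64 in *Tnrc6a* null lungs and 4.57, 4.63 and 4.53 in WT lungs (difference 0.08, 95% interval -0.16 to 0.32). *Cep192*, a scaffold for both PLK4 and the pericentriolar material, read 6.38, 6.09 and 6.38 in *Tnrc6a* null lungs and 6.42, 6.15 and 6.27 in WT lungs. It averaged 6.28 in each genotype, and *Cep57*, which sits in the ring around the parent centriole, 6.15 in each. The dimmer probe sets of *Cep63* (difference -0.19) and *Cep192* (0.01 and 0.22) differed in part from the brightest, at 0.00 for both genes. Of these 8 genes 6 were higher, *Cep192* by only 0.003, with a median difference of 0.085, and 0 had genotypes apart.

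The second role is the cartwheel, the wall and the growth of the barrel. *Cntrob*, which encodes centrobin of the daughter centriole, read 6.01, 6.07 and 6.07 in *Tnrc6a* null lungs, against 5.78, 5.90 and 5.81 in WT lungs. All *Tnrc6a* null values lay above all WT values, and the difference of 0.22 (SE 0.09, 95% interval 0.03 to 0.41) had an unadjusted p of 0.0311 and an adjusted p of 0.89 (limma). *Sfi1*, a centrin-binding gene, read 6.52, 6.68 and 6.15 in *Tnrc6a* null lungs and 5.97, 6.48 and 6.31 in WT lungs (difference 0.20, 95% interval -0.18 to 0.57). Here null replicate 3 and WT replicate 1 were the lowest of their genotype, the reverse of the order seen for *Stil*.

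*Cep135*, which ties the cartwheel to the wall, read 5.41, 5.17 and 5.01 in *Tnrc6a* null lungs and 5.15, 5.48 and 5.22 in WT lungs (difference -0.09, 95% interval -0.40 to 0.23). *Cetn3*, a centrin of the distal lumen, read 6.19, 6.02 and 6.14 in *Tnrc6a* null lungs and 6.31, 6.13 and 6.04 in WT lungs (difference -0.04, 95% interval -0.27 to 0.19). In both genes the genotypes overlapped, and both signs turned when 1 lung was left out. *Cetn2*, a relative of *Cetn3*, averaged 6.03 ± 0.14 in *Tnrc6a* null lungs and 6.11 ± 0.24 in WT lungs (SD, n = 3 each). *Cenpj*, which encodes the wall elongation factor CPAP, read 4.83, 4.87 and 4.48 in *Tnrc6a* null lungs and 4.82, 4.62 and 4.63 in WT lungs, the lowest value in null replicate 3. *Rttn*, needed for full-length centrioles, had a difference of 0.13. *Poc1b*, which stabilises the wall, read 7.31, 7.23 and 7.33 in *Tnrc6a* null lungs and 7.21, 7.50 and 7.39 in WT lungs (difference -0.08, 95% interval -0.29 to 0.13). The elongation factors *Cep120* and *Spice1*, the wall gene *Poc1a* and the distal gene *Poc5* had differences of -0.11 to -0.03, all with overlapping genotypes. Of the 12 genes 4 were higher and 8 lower, with a median difference of -0.055.

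The third role is the cap that ends the barrel and holds back a cilium. *Ccp110*, which encodes the cap protein CP110, read 5.73, 5.76 and 5.76 in *Tnrc6a* null lungs and 6.01, 5.76 and 5.65 in WT lungs. The *Tnrc6a* null values lay inside the WT range, and the difference was -0.06 (SE 0.11, 95% interval -0.31 to 0.19, limma adjusted p 0.959). Without WT replicate 1 it was 0.045. *Ccp110* is the 1 gene of the set within 10 Mb of *Tnrc6a* on chromosome 7. *Cep97*, the partner of CP110, read 4.75, 4.60 and 4.67 in *Tnrc6a* null lungs and 4.71, 4.60 and 4.52 in WT lungs, with overlapping genotypes.

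*Kif24*, a kinesin that stabilises CP110 at the mother centriole, read 5.09, 5.04 and 5.06 in *Tnrc6a* null lungs, against 4.96, 4.61 and 4.69 in WT lungs. The genotypes did not overlap, and the difference of 0.31 (SE 0.12, 95% interval 0.04 to 0.58) had an unadjusted p of 0.0311 and an adjusted p of 0.89 (limma). *Mphosph9*, which keeps CP110 and CEP97 in place, read 5.44, 5.55 and 5.37 in *Tnrc6a* null lungs, against 5.35, 5.32 and 5.32 in WT lungs (difference 0.12, 95% interval -0.09 to 0.34), apart by the distance between 5.37 and 5.35. *Ttbk2*, the kinase that starts removal of the cap, read 6.42, 6.52 and 6.41 in *Tnrc6a* null lungs, against 6.60, 6.61 and 6.63 in WT lungs (difference -0.16, 95% interval -0.34 to 0.02). Its *Tnrc6a* null values all lay below the WT values, at an unadjusted limma p of 0.0688. *Cep78*, a centriole wall gene, averaged 6.11 ± 0.12 in *Tnrc6a* null lungs and 6.03 ± 0.17 in WT lungs. Of the 6 genes of this role, the genotypes were thus apart for 2 higher genes and 1 lower gene (4.67% and 5.51% of all genes), and none of the 3 passed the adjusted threshold.

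**Figure D2:**
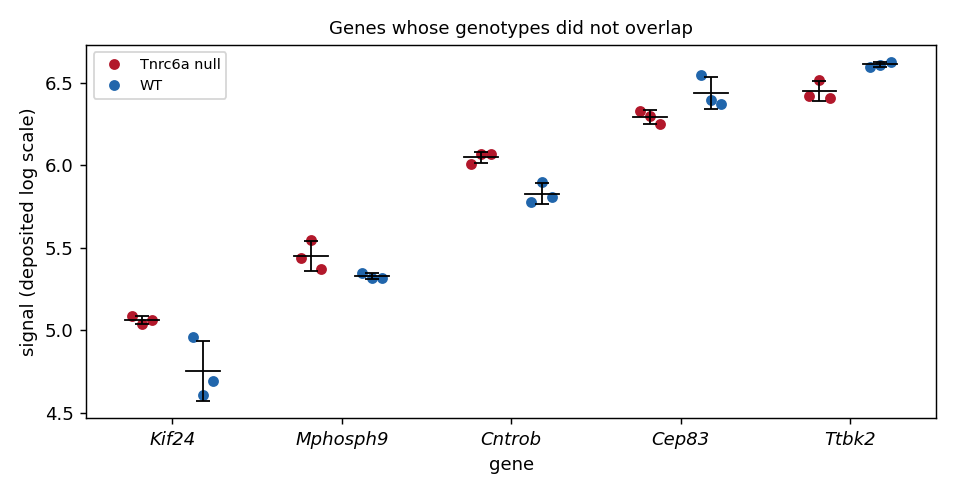
Signal (deposited log scale) of the 5 genes whose genotypes did not overlap, with 1 point per lung, the mean and the SD (n = 3 each). *Kif24*, *Mphosph9* and *Cntrob* lie higher and *Cep83* and *Ttbk2* lower in *Tnrc6a* null lungs, with differences of -0.16 to 0.31.

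The fourth role is the appendages and the distal end, by which a centriole docks to the membrane. *Cep83*, the root of the distal appendage, read 6.33, 6.30 and 6.25 in *Tnrc6a* null lungs, against 6.55, 6.40 and 6.37 in WT lungs (difference -0.15, 95% interval -0.34 to 0.05, unadjusted p 0.126). The genotypes did not overlap, with the nearest lungs at 6.33 and 6.37. *Cep164*, the outer distal appendage gene that binds TTBK2, read 5.49, 5.68 and 5.36 in *Tnrc6a* null lungs and 5.60, 5.71 and 5.73 in WT lungs (difference -0.17, 95% interval -0.42 to 0.08). Its genotypes overlapped, and its second probe set had a difference of -0.07. Of the other distal appendage genes, *Sclt1* read 4.30, 4.13 and 4.38 in *Tnrc6a* null lungs and 4.65, 4.11 and 3.99 in WT lungs, whose range enclosed the *Tnrc6a* null values. *Cep89* averaged 5.81 ± 0.01 in *Tnrc6a* null lungs and 5.80 ± 0.03 in WT lungs (SD, n = 3 each). *Fbf1* had a difference of -0.02. *Odf2*, of the subdistal appendage, read 6.49, 6.48 and 6.30 in *Tnrc6a* null lungs and 6.38, 6.46 and 6.37 in WT lungs, which lay within the *Tnrc6a* null range, and *Nin*, of the same structure, had a difference of -0.08. *Ofd1*, which limits the length of the distal end, averaged 5.03 ± 0.11 in *Tnrc6a* null lungs and 4.88 ± 0.32 in WT lungs. In this role 4 genes were higher and 4 lower.

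The remaining roles surround the barrel. *Pcm1*, the scaffold of the centriolar satellites that gather around growing centrioles, read 8.06, 8.10 and 8.26 in *Tnrc6a* null lungs and 8.15, 7.99 and 7.98 in WT lungs (difference 0.10, 95% interval -0.10 to 0.30). WT replicate 1 lay among the *Tnrc6a* null lungs. The satellite genes *Cep131* and *Cep72* had differences of -0.04 and 0.01, and *Cep290*, of the transition zone, read 4.47, 4.30 and 3.99 in *Tnrc6a* null lungs and 4.39, 4.19 and 4.06 in WT lungs, which lay within the *Tnrc6a* null range.

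*Tubg1*, the γ-tubulin gene of the complex that starts microtubules, read 7.92, 7.73 and 8.07 in *Tnrc6a* null lungs and 7.91, 7.74 and 7.56 in WT lungs (difference 0.17, 95% interval -0.10 to 0.44). Null replicate 2 and WT replicate 2 were at nearly the same level, and the genotypes overlapped. *Tubgcp2*, of the same complex, had a difference of 0.00. The scaffolds *Pcnt* and *Cdk5rap2* had differences of 0.11 and 0.13, and the linker genes *Cep250* and *Cntln* of 0.00 and 0.06. *Ninl*, a relative of *Nin*, read 4.84, 4.83 and 4.80 in *Tnrc6a* null lungs and 4.70, 4.93 and 4.78 in WT lungs, with overlapping genotypes. All 7 genes of the pericentriolar material and linker had means at or above WT, 3 of them by 0.02 or less, with a median difference of 0.057, and 0 of them reached an unadjusted p under 0.05.

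The 6 genes whose proteins the study stained in airway cells, *Ccp110*, *Deup1*, *Cetn3*, *Cep135*, *Tubg1* and *Pcm1*, thus had differences of -0.09 to 0.17, each with overlapping genotypes and an interval that includes 0. These are RNA values of whole lungs, whereas the staining was of protein in single MCCs. In cultured *Tnrc6a* null MCCs the study reported reduced CCP110 and Centrin3 signals, and CEP135 and PCM1 clustered in a corner. The arrays do not measure those proteins. The intervals bound what these arrays could show. Over the 45 genes, 6 had an interval within 0.25 of 0 on either side, 16 within 0.3 and 39 within 0.5. The 6 genes with a bound beyond 0.5 were *Stil*, *Plk4*, *Kif24*, *Sfi1*, *Ofd1* and *Deup1*.

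**Figure D3:**
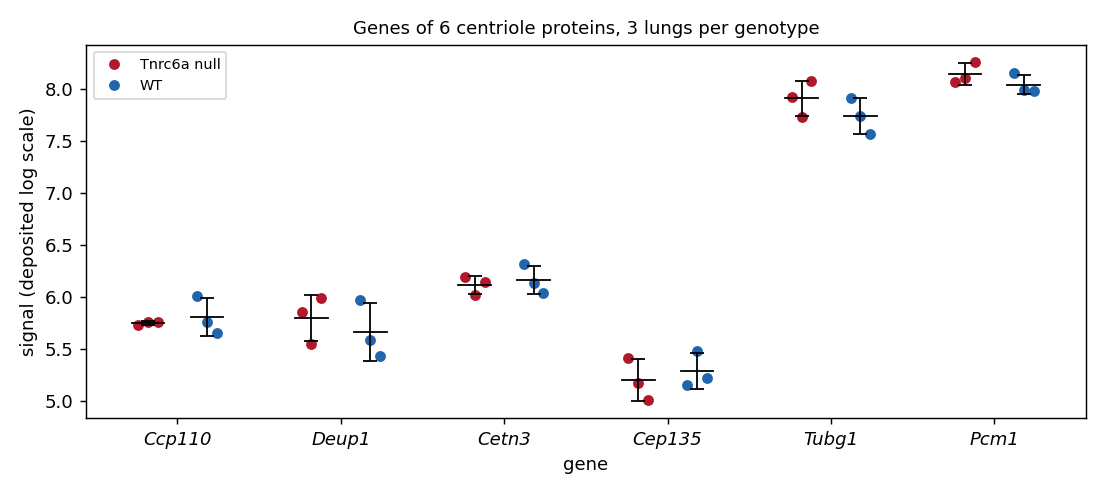
Signal (deposited log scale) of the 6 genes whose proteins were stained in airway cells, with 1 point per lung, the mean and the SD (n = 3 each). *Tnrc6a* null and WT lungs overlap in each gene, and the differences run from -0.09 for *Cep135* to 0.17 for *Tubg1*.

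The spread between lungs of 1 genotype was then examined. For each gene the SD within a genotype was set against the median SD of all genes of like signal, taken from 10 equal bins of mean signal. It was above that median for 16 of the 45 genes, against 9968 of all 19938 genes. Most of the 45 genes thus had an SD at or below the median of their bin. *Plk4* had an SD of 0.401, 3.1 times the median of 0.129, and *Stil* one of 0.387, 2.7 times the median of 0.143. *Sfi1* (2.06 times), *Sass6* (1.94 times), *Deup1* (1.77 times), *Tubg1* (1.64 times), *Ofd1* (1.52 times) and *Cetn2* (1.5 times) followed. At the other end *Cep89* had an SD of 0.018, 0.13 times the median. The genes that start centrioles thus held 4 of the 5 highest ratios. The other genes of that role were at 1.18 (*Cep192*), 0.79 (*Cep63*), 0.67 (*Cep57*) and 0.29 times (*Cep152*). In this role 5 of the 8 genes were above the median of their bin. The median SD of the role was 0.201, against 0.154 over all genes. The ratio was not tested.

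**Figure D4:**
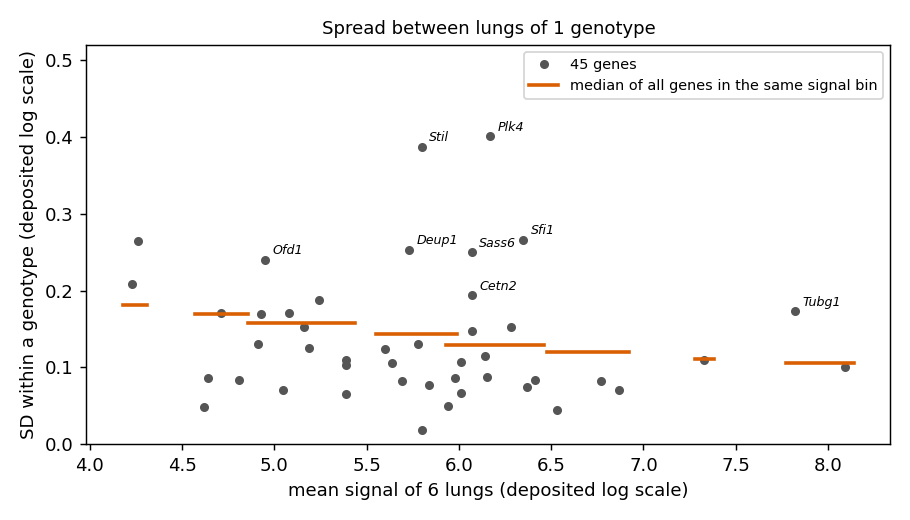
SD within a genotype (vertical axis) against the mean signal of 6 lungs (horizontal axis), both on the deposited log scale, for the 45 genes, with the median SD of all genes in the same signal bin as lines. *Plk4* and *Stil* stand highest at 0.401 and 0.387, and the genes named are those at 1.5 times the line or more.

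The order of the lungs was set beside that of other gene lists. WT replicate 1 was the highest lung for 11 of the 45 genes (24.4%), against 11.2% of all genes, and null replicate 3 for 10 (22.2%), against 17.2%. For 41 further centrosome and centriole genes, described below, these shares were 31.7% and 14.6%. Over all genes, the mean deviation from the mean of 6 lungs was lowest in WT replicate 1, at -0.082. The mean deviation of the 8 initiation genes from their mean over 6 lungs was 0.09, -0.12 and 0.20 in *Tnrc6a* null lungs and 0.14, -0.13 and -0.19 in WT lungs. For 29 proliferation genes, such as *Cdk1*, which drives entry into mitosis, it was 0.16, -0.15 and 0.32 in *Tnrc6a* null lungs and 0.18, -0.26 and -0.26 in WT lungs. Both lists were highest in null replicate 3 and had WT replicate 1 above the other WT lungs. For 28 genes of MCCs it ran from -0.05 to 0.02 in *Tnrc6a* null lungs and from -0.03 to 0.04 in WT lungs, without that order.

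**Figure D5:**
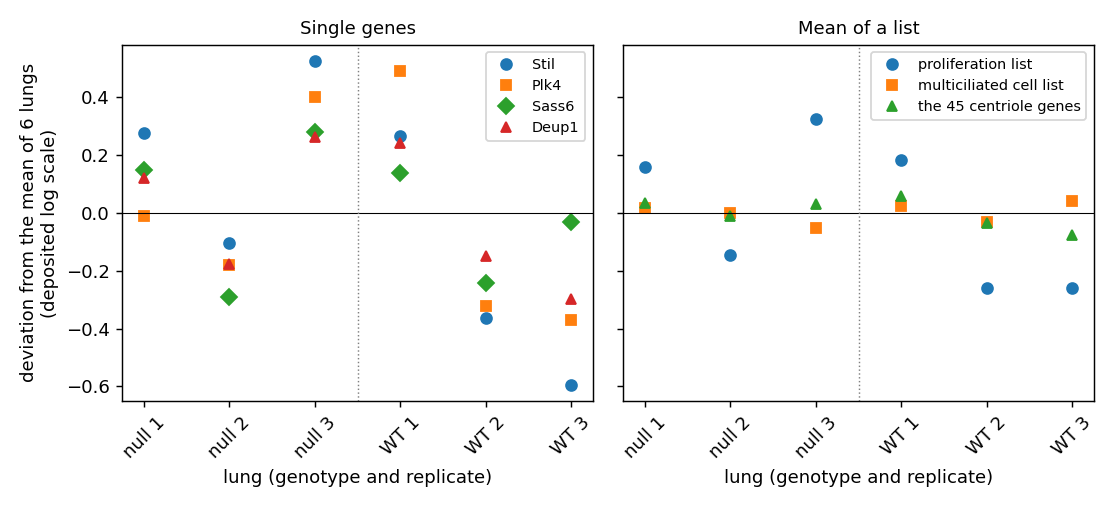
Deviation of each lung from the mean of 6 lungs (deposited log scale) for *Stil*, *Plk4*, *Sass6* and *Deup1* (left) and for the mean of the proliferation list, the MCC list and all 45 genes (right). Null replicate 3 and WT replicate 1 are high for the 4 genes and for proliferation, while the mean of the 45 genes stays between -0.08 and 0.06. Null replicate 1 also lies above the mean for *Stil*, *Sass6*, *Deup1* and proliferation.

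Of the 29 proliferation genes 28 had a higher mean in *Tnrc6a* null lungs (96.6%), against 49.2% of all genes, with a median difference of 0.23. At an unadjusted p under 0.05, 3 were higher (10.3%), against 2.46% of all genes (limma). *Cdk1* read 7.73, 7.54 and 7.61 in *Tnrc6a* null lungs, against 7.44, 7.35 and 7.18 in WT lungs (unadjusted p 0.0106, adjusted p 0.89, limma). The part of proliferation in the values of *Stil*, *Plk4* and *Deup1* was not tested. Of 28 MCC genes 12 were higher and 16 lower. *Rsph1*, a radial spoke gene of motile cilia, was the 1 at an unadjusted p under 0.05 (3.57%), against 2.96% of all genes lower. It read 5.12, 5.25 and 5.40 in *Tnrc6a* null lungs, against 5.71, 5.73 and 5.70 in WT lungs (unadjusted p 0.0018, adjusted p 0.89, limma). Of 14 genes of lung epithelium, vessels and stroma, 11 were lower (78.6%), against 49.8% of all genes. At an unadjusted p under 0.05, 4 were lower (28.6%), against 2.96% of all genes (limma). Among them *Eln*, the elastin gene, read 10.03, 10.02 and 10.05 in *Tnrc6a* null lungs, against 10.34, 10.18 and 10.35 in WT lungs.

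A further list of 44 centrosome and centriole genes outside the set, 41 of them measured, was counted in the same way. Of the 41 genes 26 were higher and 15 lower, with a median difference of 0.017. The genotypes were apart for 3 higher genes (7.32%) and 2 lower genes (4.88%), against 4.67% and 5.51% of all genes. *Tube1*, the ε-tubulin gene needed for the triplet wall, was the 1 at an unadjusted p under 0.05 (2.44%), against 2.46% of all genes higher. It read 5.22, 5.14 and 5.57 in *Tnrc6a* null lungs, against 5.13, 4.85 and 4.77 in WT lungs (difference 0.39, 95% interval 0.05 to 0.73, unadjusted p 0.0276, limma).

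The calls at an unadjusted p changed with the lungs used. Without null replicate 3 and WT replicate 1, *Kif24*, *Plk4* and *Stil* were higher and *Poc1b* lower in *Tnrc6a* null lungs at an unadjusted p under 0.05, 4 of 45 genes, when 14.5% of all genes reached it, and 0 of the 45 passed the adjusted threshold. *Plk4* differed by 0.42 without WT replicate 1 alone and by -0.03 without null replicate 3 alone. Over the 14 of 20 alternative settings that could move a difference, 21 of the 45 genes kept the sign of their difference. Among them were *Stil* (0.28 to 0.71), *Cntrob* (0.18 to 0.26), *Kif24* (0.24 to 0.42) and *Ttbk2* (-0.20 to -0.11). Over all settings, the smallest adjusted p of any of the 45 was 0.11, in limma with a block for null replicate 3 and WT replicate 1.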

How the data were processed

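RNA of 6 whole lungs at E18.5, 3 *Tnrc6a* null and 3 WT, was hybridised to Affymetrix Mouse Gene 1.0 ST arrays. The authors deposited 1 value for each of 35045 probe sets and lung, called log2 in the labels, from 0.29 to 12.49. The submitters' processing notes name MAS5, with version and settings not given in the sources used here. Signal over background was not measured, for lack of scanner data, and the number of arrays limits the precision.

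The 21789 probe sets with 1 gene symbol were kept, 21698 brought to current symbols by Entrez ID, and the one with the highest mean stood for a gene (999 of 19938 genes had several, among them *Cep63*, *Cep164* and *Cep192*). Values were used as deposited. The difference, *Tnrc6a* null minus WT, was fitted for all genes in limma 3.58.1 under R 4.3.3, using lmFit and a signal-dependent eBayes. Calls were made at a Benjamini-Hochberg adjusted p of 0.05. Nothing says that the embryos of a genotype came from separate litters. The submitters' design text names a two-sample t-test, run here as an alternative. Other alternatives were quantile normalization, median centring, a correction by signal bin (10 equal bins), only genes above the median signal, averaged probe sets, other eBayes settings, array weights, blocks and left-out lungs. The procedure was tested on simulated data. Summaries and plots used Python 3.11.15, pandas 2.3.3 and matplotlib 3.10.9.

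The 45 genes, their roles and the other lists were chosen with earlier results of these data known. Full values were given for genes whose proteins the study stained, for genes at an unadjusted p under 0.05, and in each role for the largest difference and the highest and lowest signal; *Plk4*, *Sass6*, *Sfi1*, *Mphosph9* and *Cep83* were described after their values were seen. Promoters and miRNAs are RefSeq entries of GRCm38.p6, with 37 of 45 genes matched.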

Additional observations from a re-analysis of the deposited data

How the results depend on the processing

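None of the 45 genes passed the adjusted threshold in limma under any of the alternatives run, whereas 2 had an unadjusted p under 0.05 in the fit reported. In the t-test of the submitters' design text 3 (*Cntrob* and *Kif24* higher, *Ttbk2* lower) had a p under 0.05, against 5.53% of all genes. Of the 45 genes, 0 passed in it after Benjamini-Hochberg adjustment. The count of 2 in limma (5.42% of all genes) was 1 after quantile normalization over all probe sets (*Cntrob*, with *Kif24* at p 0.0533), against 4.45% of all genes. It was 1 after median centring over all probe sets (*Ttbk2*, lower, with *Cntrob* at 0.0604 and *Kif24* at 0.051), against 6.92%. Among the genes above the median signal it was 1 (*Cntrob*), against 6.86% of all genes above that median. There 28 of the 45 were tested, without *Kif24*. The count was 6 when null replicate 3 and WT replicate 1 were given a block of their own (14.9% of all genes) and 4 without both (14.5%). When 1 lung was left out, it ran from 0 (without WT replicate 3, 3.35% of all genes) to 3 (without WT replicate 1, 8.68%). The median difference of 0.02 was -0.017 after median centring over all probe sets (-0.037 over all genes) and 0.065 without both lungs (-0.02 over all genes), and ran from 0.007 to 0.055 when 1 lung was left out. The 5 genes with genotypes apart were 3 among those above the median signal, 20 without both lungs, and 6 to 14 when 1 lung was left out. Fewer lungs make such separation more frequent. The share of all genes apart was not counted in these settings, so these counts have no baseline and nothing is read from them. The difference of *Ccp110* was 0.003 with array weights, 0.04 without both lungs, and -0.135 to 0.045 when 1 lung was left out. That of *Cetn3* was 0.02 without both lungs and -0.103 to 0.032 when 1 was left out, and that of *Cep135* -0.193 to 0.012. The cause of these changes was not tested.

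With the replicate number of the labels as a block in limma, 1 of the 45 genes (*Kif24*) reached an unadjusted p under 0.05, against 4.12% of all genes. *Cntrob* had 0.0527. Same-numbered lungs deviated from their genotype means with correlations of -0.295, 0.361 and -0.162 across genes. Null replicate 3 correlated at 0.538 with WT replicate 1 and at -0.535 with WT replicate 2. With 3 lungs a genotype, these values cannot show whether the numbers pair the lungs.

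With 3 lungs a genotype, the unadjusted 95% intervals reached 0.25 to either side in the median, and larger differences, such as 0.46 for *Stil*, did not pass the adjusted threshold. Over all genes, the median difference was 0.153 in the dimmest of 10 signal bins and -0.063 in the brightest. Corrected for this, *Cntrob* and *Kif24* stayed at an unadjusted p under 0.05.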
